A study of Mus musculus with 14 samples.

Results

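The glucose and lactate transporters examined here were 10 genes chosen by symbol from the gene count table: the facilitative glucose carriers Slc2a1, Slc2a3, Slc2a4, Slc2a8, Slc2a10 and Slc2a12, the monocarboxylate carriers Slc16a1, Slc16a3 and Slc16a7, and Bsg. All 10 of the 10 were found among the 55487 genes of the table, and all 10 passed the filter on low counts that left 16915 genes for testing. RNA was taken from tail intervertebral discs (IVDs) of male mice, with 5 discs pooled for each mouse and 1 library made per mouse. The db/db group (n = 3) held 3-month-old mice homozygous for the Lepr db mutation of the leptin receptor, and its db/+ controls (n = 3) were heterozygous littermates that also carried 1 mutant allele. The STZ-HFD group (n = 4) held C57BL/6J mice that were 12 weeks old at the start, ate a high-fat diet for 4 to 6 weeks, received a single injection of 100 mg/kg streptozotocin (STZ), which damages insulin-producing β-cells, and stayed on the diet for 12 weeks more. The diet is listed at 80% of kcal from fat in the labels and at 60% in the methods. Their Con+Veh controls (n = 4), labelled wild type, were also C57BL/6J mice that were 12 weeks old at the start. They ate chow with 13% of kcal from fat over the same periods and received the citrate buffer alone. The 2 models therefore differ in genotype, diet, age and drug, and each was compared with its own control.

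Glucose enters most cells down its gradient through the GLUT carriers, which the Slc2a genes encode. Slc2a1 encodes GLUT1, the carrier of basal uptake in many tissues, Slc2a3 encodes the high-affinity GLUT3, and Slc2a4 encodes GLUT4, the insulin-responsive carrier of muscle and fat. Slc2a8, Slc2a10 and Slc2a12 encode GLUT8, GLUT10 and GLUT12, of which GLUT8 is held mostly on intracellular membranes. The monocarboxylate transporters (MCTs) move lactate and pyruvate together with a proton: MCT1 (Slc16a1) and the high-affinity MCT2 (Slc16a7) are often linked to uptake, and MCT4 (Slc16a3) to lactate export from glycolytic cells. Basigin (Bsg) is the membrane glycoprotein that brings MCT1 and MCT4 to the cell surface. The disc is largely avascular, its cells rely on glycolysis, and GLUT1 and MCT4 are known from nucleus pulposus cells.

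Libraries held 16076908 to 58943169 gene counts, of which 28.1% to 60.2% fell in ribosomal RNA genes. STZ-HFD replicate 1 stood apart: it had the lowest total, and 42626 genes had a count in it against 25194 to 29924 in the others, among them 1700 of 2003 olfactory and vomeronasal receptor genes against 264 to 468. The fold changes of the genes called in STZ-HFD and the range of those of the other members are therefore given with and without it. Other results for STZ-HFD, those of the markers among them, mostly include it. All samples carry 1 batch label. The library names of all Con+Veh mice share a beginning that differs from the beginning shared by all STZ-HFD names. What these beginnings stand for is not given, and they cannot be told apart from treatment. The markers of disc and cartilage (7 genes, Acan, Col2a1 and Sox9 among them) were above 0 in all groups, with a summed level of 36499 to 57131 CPM in db/+, 16308 to 43389 in db/db, 3515 to 16169 in Con+Veh and 921 to 1951 in STZ-HFD. In STZ-HFD 5 of these 7 and 3 of 7 macrophage markers were called lower, where 1.31% of all genes were. Called higher there were 4 of 12 skeletal muscle and 1 of 8 adipocyte markers, where 1.3% of all genes were. In db/db 4 of 8 adipocyte and 1 of 6 endothelial markers were called higher, where 1.23% of all genes were. Of the 12 muscle markers 1 was called lower in db/db (0.432% of all genes), and their median log2 fold change there was −0.93. None of these markers was at 0 in every library. In such bulk tissue, fewer cells of a type and less RNA per cell cannot be told apart.

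Levels are given as CPM (counts relative to the library total, adjusted by TMM factors, a correction for unequal RNA composition) and are compared between genes only after division by the summed exon length in kilobases. On that scale Bsg had the highest level (67.5 CPM per kilobase, mean of the 4 group means), followed by Slc2a1 (29.9), Slc2a4 (11.9) and Slc16a3 (3.74). Bsg, Slc2a1, Slc2a4 and Slc16a3 held ranks 1 to 4 in every group. Slc16a1 (2.06 CPM per kilobase), Slc2a8 (1.40), Slc2a10 (0.913), Slc2a12 (0.502), Slc2a3 (0.434) and Slc16a7 (0.326) came below and exchanged places between groups. The order of neighbours held in 13 of 14 libraries for Bsg over Slc2a1 and for Slc2a1 over Slc2a4, and in all 14 for Slc2a4 over Slc16a3. It held in 12 each for Slc16a3 over Slc16a1, Slc16a1 over Slc2a8 and Slc2a8 over Slc2a10. It was less regular at the low end, with Slc2a10 above Slc2a12 in 9 libraries, Slc2a12 above Slc2a3 in 7 and Slc2a3 above Slc16a7 in 8. For no neighbours did the ranges over all 14 libraries stay separate.

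**Figure D1:**
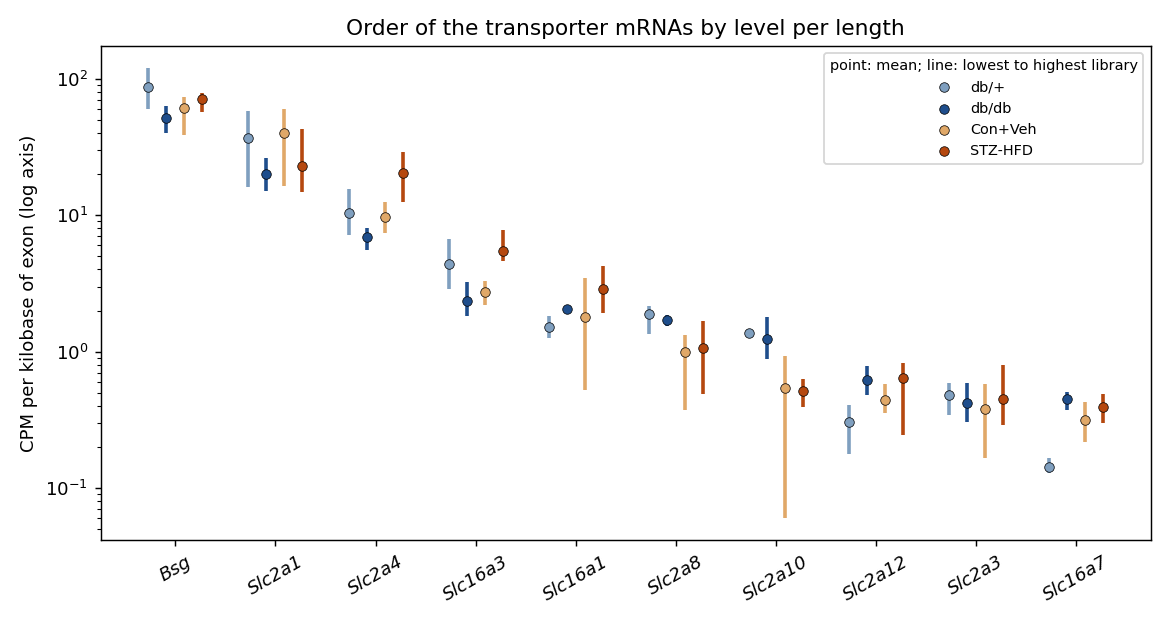
Level per length of the 10 transporter genes. The log axis gives CPM per kilobase of exon, points are group means, and lines run from the lowest to the highest library of the group (n = 3 for db/+ and db/db, n = 4 for Con+Veh and STZ-HFD). Bsg, Slc2a1, Slc2a4 and Slc16a3 hold the first 4 places in each group.

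In STZ-HFD discs the mRNAs of the insulin-responsive glucose carrier and of the lactate exporter rose: Slc2a4 was 2.46-fold and Slc16a3 2.16-fold above Con+Veh. These 2 of 10 members were called higher and 0 lower, where a call needs both an adjusted p under 0.05 by limma, over all genes tested, and a change of 1 or more on the log2 scale in either direction. Of all 16915 genes, 2.61% were called in this comparison, 1.3% higher and 1.31% lower. In db/db discs 1 of 10 members was called, Slc16a7, at 3.09-fold above db/+, where 1.66% of all genes were called, 1.23% higher and 0.432% lower. The median log2 fold change of the 10 members was 0.15 in STZ-HFD and −0.23 in db/db, beside −0.04 over all genes in each of the comparisons. At an unadjusted p under 0.05 stood 3 of 10 members in STZ-HFD (17.9% of all genes) and 4 of 10 in db/db (21.1% of all genes). Without STZ-HFD replicate 1 the same 2 members were called in STZ-HFD, and the log2 fold changes of the other 8 lay between −0.52 for Slc2a1 and 1.03 for Slc16a1 (adjusted p = 0.591 and 0.0810). The limma fit of all 14 libraries weights them by quality, at 0.275, 0.462, 3.05 and 1.81 in Con+Veh replicates 1 to 4. Without such weights neither Slc2a4 nor Slc16a3 was called.

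**Figure D2:**
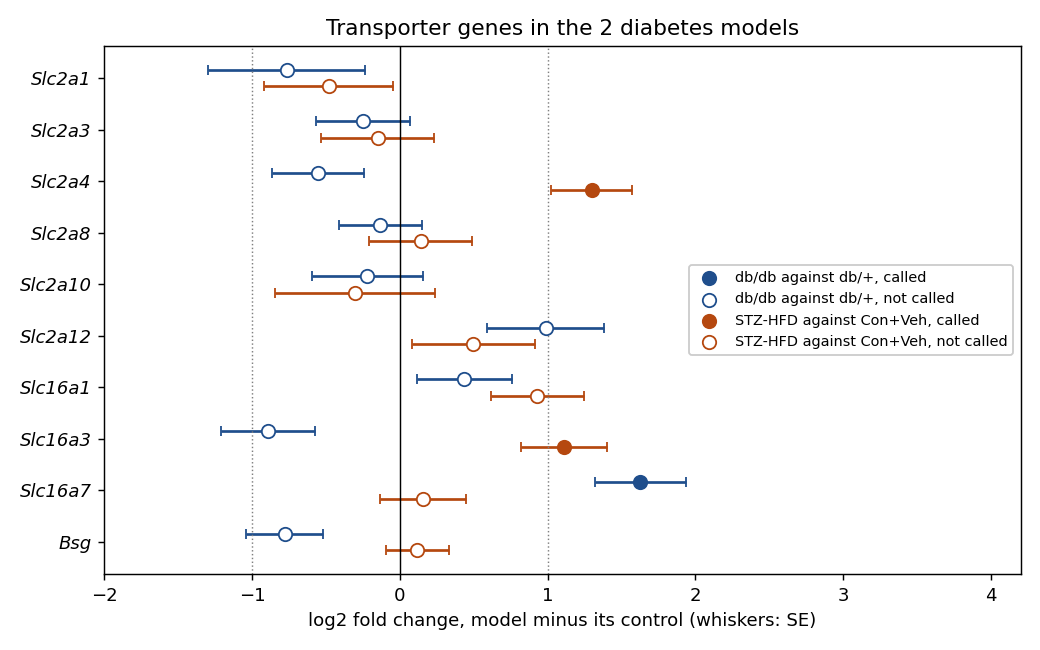
Log2 fold change of each transporter gene in db/db against db/+ (blue) and in STZ-HFD against Con+Veh (orange), with whiskers of 1 SE from the limma fit of all 14 libraries. Filled points were called; dotted lines mark the fold minimum. Slc2a4 (log2 1.30) and Slc16a3 (1.11) are filled in STZ-HFD and Slc16a7 (1.63) in db/db.

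Slc2a4 (ENSMUSG00000018566, GLUT4, GRCm38 chr11:69942539-69948188, minus strand) was at 43.1, 48.7, 101.3 and 91.0 CPM in STZ-HFD replicates 1 to 4 and at 25.8, 43.8, 29.2 and 36.6 CPM in Con+Veh replicates 1 to 4. STZ-HFD replicates 3 and 4 were far above every control, whereas replicate 1 lay just below the highest control, so the groups overlapped. The means were 71.0 ± 29.4 and 33.8 ± 8.01 CPM (SD, n = 4 each), and the log2 fold change was 1.30 (SE 0.27, adjusted p = 0.0186, limma). Without STZ-HFD replicate 1 it was 1.41 (adjusted p = 0.0110). In the db cohort Slc2a4 stood at 29.2, 53.8 and 24.7 CPM in db/+ and at 25.2, 19.3 and 28.2 CPM in db/db. That difference, −0.55 (SE 0.31, adjusted p = 0.322), did not pass the test and the groups overlapped.

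The skeletal muscle markers moved with Slc2a4, though not in every library. The summed level of the 12 was 10042, 23988, 26464 and 23358 CPM in STZ-HFD replicates 1 to 4, against 9321 to 12775 in Con+Veh, 5076 to 9707 in db/+ and 3349 to 5772 in db/db. With the mean of these markers as a covariate, the log2 fold change in STZ-HFD was 0.60 for Slc2a4 (adjusted p = 0.385) and 0.52 for Slc16a3 (adjusted p = 0.498). In STZ-HFD replicate 1, the library that stood apart in depth and genes detected, the muscle marker level lay within the Con+Veh range. Slc2a4 was there at 43.1 CPM, inside the control range, and Slc16a3 at 25.0 CPM, above the highest control at 17.4. STZ-HFD replicate 2, at 23988 CPM of muscle markers, had similar levels, 48.7 CPM of Slc2a4 and 26.0 CPM of Slc16a3. The 8 adipocyte markers summed to 1199 to 1636 CPM in STZ-HFD and to 641 to 1111 in Con+Veh. With their mean as a covariate the values were 1.20 for Slc2a4 (adjusted p = 0.386) and 1.12 for Slc16a3 (adjusted p = 0.464). That fit called 2 of 16915 genes in STZ-HFD, so the loss of these calls says little about the 2 genes. The disc and cartilage markers fell in STZ-HFD, where both genes rose, and the part of that fall in the results was not tested. The Slc2a4 call also ended with edgeR's quasi-likelihood test (log2 1.07, adjusted p = 0.202) and with limma without quality weights (0.997, adjusted p = 0.251). It ended as well on leaving out Con+Veh replicate 3 (1.14, adjusted p = 0.315), Con+Veh replicate 4 (1.34, 0.102), STZ-HFD replicate 3 (1.03, 0.256) or STZ-HFD replicate 4 (1.08, 0.119), while DESeq2 kept it (1.09, adjusted p = 0.0456).

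**Figure D3:**
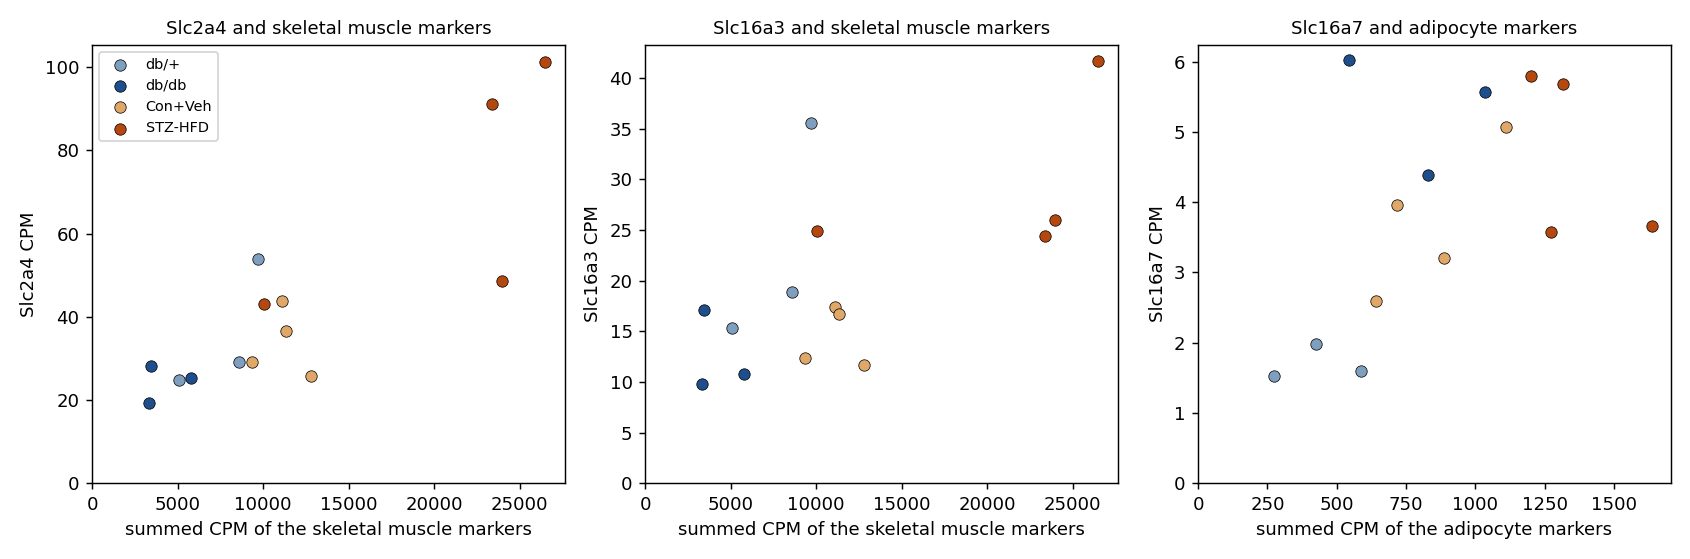
CPM of Slc2a4 and Slc16a3 against the summed CPM of 12 skeletal muscle markers, and of Slc16a7 against that of 8 adipocyte markers, in each of the 14 libraries (linear axes, 1 point per mouse). In STZ-HFD 3 libraries lie at 23358 to 26464 CPM of muscle markers and the other one at 10042; the db/db libraries lie at 542 to 1034 CPM of adipocyte markers and the db/+ libraries at 274 to 588.

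Slc2a1 (ENSMUSG00000028645, GLUT1, chr4:119108711-119137983, plus strand) was the most abundant glucose carrier per length in every group, with STZ-HFD replicate 3 the 1 library in which Slc2a4 was higher. It was at 56.2, 205 and 126 CPM in db/+ and at 64.1, 52.5 and 92.6 CPM in db/db. It was at 141, 211, 154 and 57.3 CPM in Con+Veh and at 61.5, 51.9, 58.5 and 149 CPM in STZ-HFD. In each cohort the lowest control lay among the low libraries of the model, and in STZ-HFD replicate 4 the level was that of the controls. The 7 markers of notochord and nucleus pulposus, Krt8, Krt18 and Krt19 among them, moved with Slc2a1. Their summed level was 114, 640 and 570 CPM in db/+ and 278, 168 and 296 CPM in db/db. It was 489, 1296, 576 and 169 CPM in Con+Veh and 741, 226, 384 and 750 CPM in STZ-HFD. The control libraries with the lowest Slc2a1, db/+ replicate 1 and Con+Veh replicate 4, also had the lowest marker sum of their groups, whereas STZ-HFD replicate 1 had a high marker sum and a low Slc2a1 level. Of the 7, 5 passed the filter and 0 were called in either model by limma, their median log2 fold change was −1.37 in db/db and 0.22 in STZ-HFD, and their part in the Slc2a1 values was not tested. The log2 fold changes of −0.76 in db/db (SE 0.53, adjusted p = 0.423) and −0.48 in STZ-HFD (SE 0.44, adjusted p = 0.616) were of the size of their errors. Over the 14 libraries, 1055 to 11768 counts lay behind these values.

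Of the other glucose carriers, Slc2a12 (GLUT12, chr10:22645011-22704285, plus strand) was at 0.759, 1.72 and 1.43 CPM in db/+ and at 2.47, 2.02 and 3.33 CPM in db/db. Every db/db library was above every db/+ library, yet the log2 fold change of 0.99 (SE 0.40, adjusted p = 0.168) missed the threshold, and the counts were low, from 30 to 212 per library. In STZ-HFD it was at 3.33, 1.03, 2.98 and 3.51 CPM against a highest value of 2.44 in Con+Veh, and the groups overlapped (0.50, SE 0.41, adjusted p = 0.579). Tbpl1 overlaps Slc2a12 on the other strand, and strand use in counting is not given in the sources used here. Slc2a3 (GLUT3, chr6:122727809-122801640, minus strand) ranged from 1.20 to 5.80 CPM, with log2 fold changes of −0.25 in db/db (adjusted p = 0.690) and −0.15 in STZ-HFD (adjusted p = 0.879). Its highest value was that of STZ-HFD replicate 1, and without this library the STZ-HFD value was −0.26 (adjusted p = 0.759). Slc2a8 (GLUT8, chr2:32972990-32982083, minus strand) ranged from 1.20 to 6.90 CPM with log2 fold changes of −0.13 and 0.14, and Slc2a10 (GLUT10, chr2:165503787-165519917, plus strand) from 0.217 to 6.36 CPM with −0.22 and −0.30. None of these 3 passed the test in either model, and the 0.217 CPM of Slc2a10 in Con+Veh replicate 1 rested on 8 counts.

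**Figure D4:**
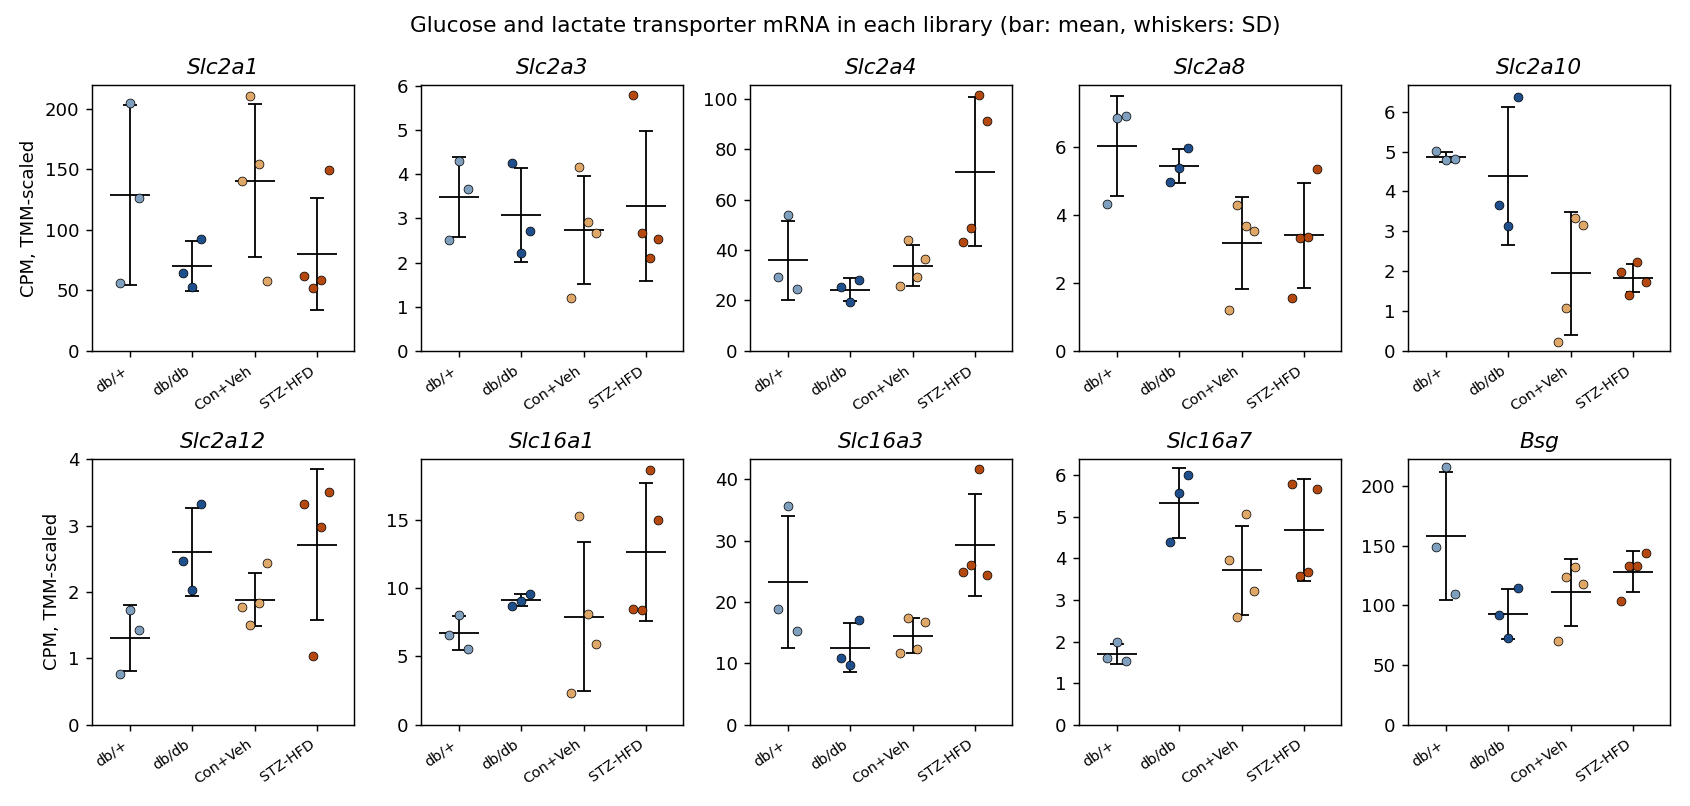
TMM-scaled CPM of the 10 transporter genes in every library. Each point is 1 mouse, horizontal bars are group means and whiskers SD (n = 3 for db/+ and db/db, n = 4 for Con+Veh and STZ-HFD); each vertical axis starts at 0 and has its own scale. Slc16a7, Slc2a12 and Slc16a1 show no overlap between db/db and db/+, and Slc16a3 none between STZ-HFD and Con+Veh.

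Slc16a3 (ENSMUSG00000025161, MCT4, chr11:120948480-120960868, plus strand) was at 25.0, 26.0, 41.7 and 24.4 CPM in STZ-HFD and at 11.7, 17.4, 12.4 and 16.7 CPM in Con+Veh. All 4 STZ-HFD libraries lay above all 4 controls, which was so of 1 of 10 members, where 4.74% of all genes had groups that did not overlap, 1.97% with the model higher and 2.77% with it lower. The means were 29.3 ± 8.32 and 14.5 ± 2.91 CPM (SD, n = 4 each), with a log2 fold change of 1.11 (SE 0.29, adjusted p = 0.0443, limma), and 1.18 without STZ-HFD replicate 1 (adjusted p = 0.0399). Slc16a3 is named in the study's own account of these samples, so its choice as a member is not independent of them. In the db cohort it was at 18.9, 35.6 and 15.3 CPM in db/+ and at 10.8, 9.78 and 17.1 CPM in db/db, with overlapping groups and a difference of −0.89 on the log2 scale (SE 0.32, adjusted p = 0.127). The STZ-HFD call ended with edgeR's quasi-likelihood test (1.01, adjusted p = 0.198), DESeq2 (1.03, adjusted p = 0.0524) and limma without quality weights (0.996, adjusted p = 0.230). It also ended on leaving out 8 of the 14 libraries singly, with log2 0.84 to 1.23 and adjusted p of 0.0505 (without Con+Veh replicate 2), 0.0530 (db/+ replicate 1), 0.0532 (db/db replicate 1), 0.0607 (STZ-HFD replicate 2), 0.0898 (STZ-HFD replicate 4), 0.168 (Con+Veh replicate 4), 0.404 (STZ-HFD replicate 3) and 0.478 (Con+Veh replicate 3).

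The sequence before a start site of Slc16a3 is printed because this gene, known as a target of hypoxia-inducible factors, was called in STZ-HFD, and that of Slc16a1 for comparison with the other chaperoned lactate carrier. They are the 250 bases before a RefSeq start site on GRCm38.p6, both on the plus strand, at chr11:120948817-120949066 for Slc16a3 and chr3:104638414-104638663 for Slc16a1. The Slc16a3 window lies inside the gene as annotated in GENCODE, which begins at chr11:120948480, whereas that of Slc16a1 lies before its gene, which begins at chr3:104638668. Capitals mark ACGTG and GCGTG, the core letters of the hypoxia response element, on either strand.
Slc16a3: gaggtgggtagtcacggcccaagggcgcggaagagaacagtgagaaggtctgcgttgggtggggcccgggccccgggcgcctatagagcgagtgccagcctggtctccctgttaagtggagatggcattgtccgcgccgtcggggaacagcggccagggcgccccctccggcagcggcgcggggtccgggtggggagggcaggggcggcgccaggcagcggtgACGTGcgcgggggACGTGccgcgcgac
Slc16a1: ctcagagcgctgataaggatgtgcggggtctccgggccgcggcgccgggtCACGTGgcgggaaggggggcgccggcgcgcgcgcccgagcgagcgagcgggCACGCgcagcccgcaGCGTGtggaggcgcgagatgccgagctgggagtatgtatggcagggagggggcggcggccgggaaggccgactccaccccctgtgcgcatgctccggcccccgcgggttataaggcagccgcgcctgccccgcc
The Slc16a3 window held 2 matches to ACGTG and 0 to GCGTG, and the Slc16a1 window held 2 to each, of which the ACGTG matches are the opposite strands of 1 CACGTG. Of 32851 such windows in the RefSeq table, 16.6% held ACGTG, 28.2% GCGTG and 6.02% CACGTG. Base composition was high in G and C in both, at 73.6% for Slc16a3 and 76.4% for Slc16a1. A match describes letters and not a bound site. Of the 10 members, 6 had a window in the table, also Slc2a1, Slc2a8, Slc2a10 and Slc2a12. The Slc2a1 window held 1 match to ACGTG and 1 to GCGTG, that of Slc2a8 0 and 1, and those of Slc2a10 and Slc2a12 0 of each. Slc2a1 was not called in STZ-HFD (log2 −0.48, adjusted p = 0.616, limma).

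Slc16a1 (ENSMUSG00000032902, MCT1, chr3:104638668-104658462, plus strand) was at 8.51, 8.42, 18.7 and 15.0 CPM in STZ-HFD and at 2.31, 15.3, 8.13 and 5.92 CPM in Con+Veh. Con+Veh replicate 2 was as high as the upper STZ-HFD libraries, and the log2 fold change of 0.93 (SE 0.31, adjusted p = 0.116) missed the threshold. In db/db it was at 8.73, 9.06 and 9.58 CPM, all above the 6.59, 8.03 and 5.55 CPM of db/+, with a log2 fold change of 0.44 (SE 0.32, adjusted p = 0.455). Both models thus gave a positive value for Slc16a1 without a call.

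Slc16a7 (ENSMUSG00000020102, MCT2, chr10:125219270-125389465, minus strand) was at 4.39, 5.57 and 6.02 CPM in db/db and at 1.60, 1.98 and 1.52 CPM in db/+. Each db/db library lay well above the highest db/+ library, on 279 to 388 counts against 78 to 114. The means were 5.33 ± 0.841 and 1.70 ± 0.246 CPM (SD, n = 3 each), with a log2 fold change of 1.63 (SE 0.31, adjusted p = 0.0208, limma). Slc16a7, Slc2a12 and Slc16a1 were the 3 of 10 members with db/db wholly above db/+, and 0 were wholly below, where 25.8% of all genes had groups that did not overlap, 14.1% with db/db higher and 11.7% with it lower. In the other cohort it was at 5.80, 3.58, 3.67 and 5.68 CPM in STZ-HFD and at 3.97, 2.60, 5.08 and 3.20 CPM in Con+Veh, with overlapping groups (0.16, SE 0.29, adjusted p = 0.826).

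The exons of Slc16a7 had the lowest share of G and C of the members, 37.7%, and base composition moved with the fold changes in db/db: of 20 bins of genes by this share, the lowest bin, which held Slc16a7, had a median log2 fold change of 0.40, and the highest bin −0.51. With each library's trend on base composition taken off, the log2 fold change of Slc16a7 was 1.24 (adjusted p = 0.0824). The 8 adipocyte markers summed to 542 to 1034 CPM in db/db and to 274 to 588 in db/+. They differed between the groups as Slc16a7 did, but not library by library. In db/db replicate 3 their sum was the lowest of the group, 542 CPM, and the Slc16a7 level the highest, 6.02 CPM. With their mean as a covariate the log2 fold change of Slc16a7 was 1.26 (adjusted p = 0.470). That fit called 0 of 16915 genes in db/db, so the loss of the call says little about this gene. The call was also lost with the mean of the skeletal muscle markers as a covariate, in a fit that called 238 of 16915 genes in db/db. It ended with edgeR's quasi-likelihood test (1.64, adjusted p = 0.176) and with limma without quality weights (1.64, adjusted p = 0.112). So it did without db/+ replicate 2 (1.76, adjusted p = 0.0637), db/+ replicate 3 (1.56, 0.0541), db/db replicate 2 (1.58, 0.0582) or db/db replicate 3 (1.53, 0.0612), and DESeq2 kept it (1.67, adjusted p = 0.00374).

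Bsg (ENSMUSG00000023175, chr10:79704491-79711969, plus strand) was at 149, 216 and 109 CPM in db/+ and at 91.5, 72.6 and 115 CPM in db/db. Its log2 fold change there was −0.78 (SE 0.26, adjusted p = 0.108), with 1 db/db library above the lowest control. With the base composition trend taken off it was −0.34 (adjusted p = 0.560), and the exons of Bsg hold 57.6% G and C. In STZ-HFD it was at 103, 133, 133 and 144 CPM against 69.7, 124, 132 and 118 CPM in Con+Veh, and the log2 fold change was 0.12 (SE 0.21, adjusted p = 0.818). Bsg was thus called in neither model, whereas its partner Slc16a3 was called in STZ-HFD, and whether these responses differ from each other was not tested.

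Within a library, the make-up of each family does not depend on scaling between libraries. Slc2a1 and Slc2a4 together made most of the glucose carrier mRNA per length. Slc2a4 took 38.1%, 45.4%, 60.1% and 36.4% of the summed CPM per kilobase of the 6 GLUT members in STZ-HFD, against 15.3%, 16.7%, 15.2% and 35.3% in Con+Veh. Every STZ-HFD library was above every control, though Con+Veh replicate 4 came close to the lowest of them. In level, 4.74% of all genes did not overlap in this comparison. The muscle markers were also higher in STZ-HFD, except in replicate 1, and their part in this share was not tested. In db/+ the share was 30.3%, 19.8% and 15.0% and in db/db 24.8%, 23.2% and 20.6%. Slc2a12 took 1.99%, 2.00% and 2.00% in db/db and 0.647%, 0.519% and 0.712% in db/+, without overlap, in a comparison where 25.8% of all genes did not overlap in level.

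Among the monocarboxylate carriers, Slc16a3 took 46.4%, 42.2% and 54.6% of the summed CPM per kilobase of the 3 MCT members in db/db against 68.7%, 77.1% and 67.5% in db/+, while Slc16a1 took 45.1%, 47.0% and 36.7% against 28.7%, 20.9% and 29.5%. Slc16a7 took 8.48%, 10.8% and 8.62% against 2.61%, 1.93% and 3.02%. The db/db and db/+ libraries did not overlap in these 3 shares, which were not tested, in a comparison where 25.8% of all genes did not overlap. Base composition moved with them: the exons of Slc16a3 hold 56.6% G and C, those of Slc16a1 42.9% and those of Slc16a7 37.7%, and the bins of genes that held them had median log2 fold changes of −0.41, 0.24 and 0.40 in db/db. With the base composition trend taken off, the log2 fold change in db/db was −0.51 for Slc16a3 (adjusted p = 0.449), 0.17 for Slc16a1 (adjusted p = 0.836) and 1.24 for Slc16a7 (adjusted p = 0.0824). The log2 ratio of Slc16a3 to Slc16a1 per length was 0.15 ± 0.38 in db/db and 1.45 ± 0.38 in db/+ (SD, n = 3 each). In the other cohort it was 0.99 ± 0.42 in STZ-HFD and 0.89 ± 0.96 in Con+Veh (SD, n = 4 each), a difference within the spread. The log2 ratio of Slc2a4 to Slc2a1 was −0.12 ± 0.67 in STZ-HFD and −1.93 ± 0.86 in Con+Veh, with 1 control, at −0.64, inside the STZ-HFD range. That of Slc2a3 to Slc2a1 was −5.64 ± 1.03 in STZ-HFD and −6.72 ± 1.00 in Con+Veh, which overlapped.

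**Figure D5:**
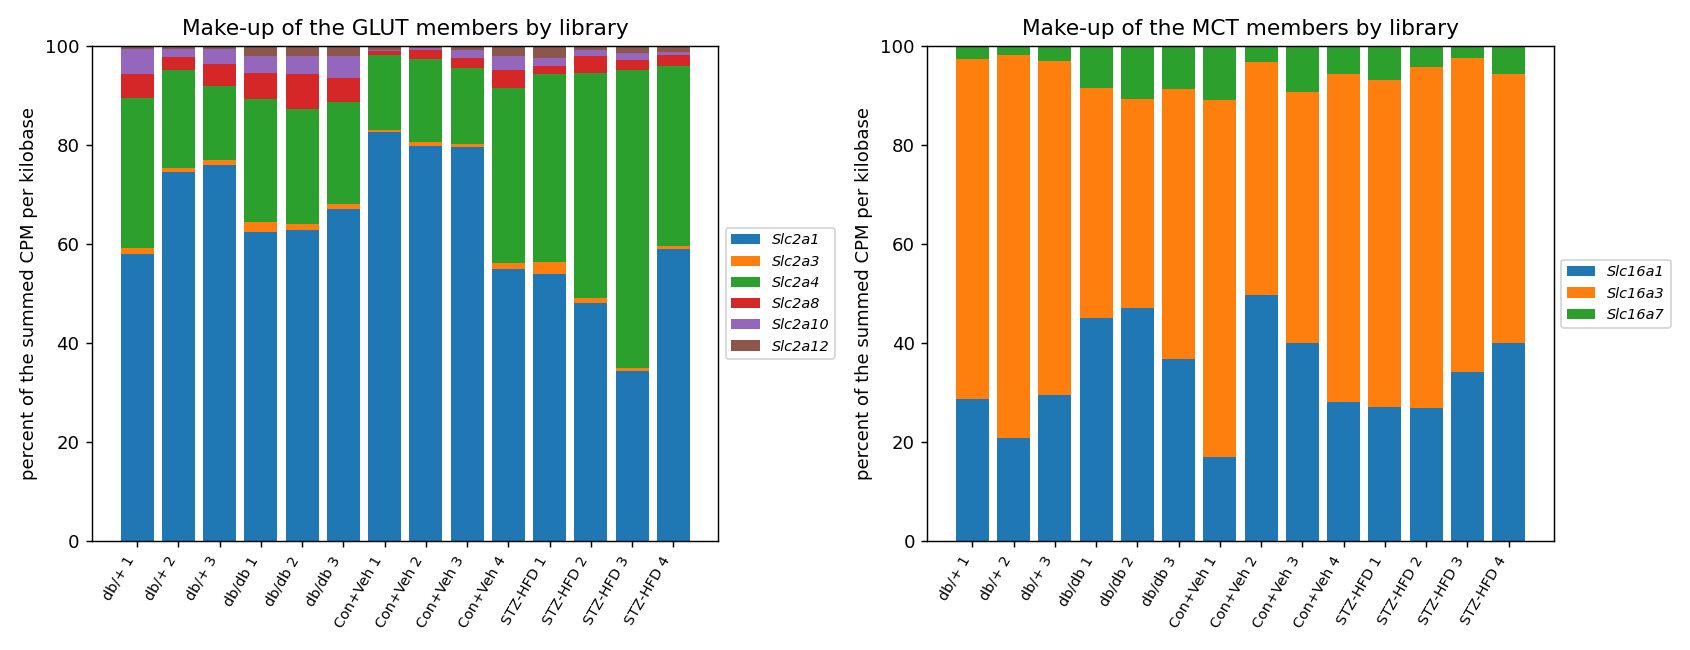
Percent of the summed CPM per kilobase that each gene takes among the 6 GLUT members (left) and the 3 MCT members (right), 1 bar per library, bars from 0 to 100. Slc2a4 takes 36.4% to 60.1% in the STZ-HFD libraries and 15.2% to 35.3% in Con+Veh; Slc16a3 takes 42.2% to 54.6% in db/db and 67.5% to 77.1% in db/+.

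Whether a gene responded differently in the 2 models was tested as the STZ-HFD response minus the db/db response. Slc2a4 (log2 difference 1.85, SE 0.42, adjusted p = 0.0341, limma) and Slc16a3 (2.00, SE 0.43, adjusted p = 0.0308) were called, 2 of 10 members, where 1.77% of all genes were called, 0.952% higher and 0.816% lower. Both had a positive value in STZ-HFD and a negative one in db/db. For Slc16a7 the difference was −1.47 (SE 0.42, adjusted p = 0.0841) and for Bsg 0.90 (SE 0.33, adjusted p = 0.172), neither past the threshold. With the muscle markers as a covariate the differences were 0.61 for Slc2a4 (adjusted p = 0.627) and 0.97 for Slc16a3 (adjusted p = 0.442), and neither was called by edgeR's quasi-likelihood test (adjusted p = 0.230 and 0.147). Both calls also ended with the base composition trend taken off, at 1.62 for Slc2a4 (adjusted p = 0.0607) and 1.71 for Slc16a3 (adjusted p = 0.0590). Left out singly, 9 of 14 libraries ended the Slc2a4 call, with log2 1.46 to 1.97: db/+ replicates 1 and 2, the db/db libraries, Con+Veh replicates 3 and 4 and STZ-HFD replicates 3 and 4, with adjusted p from 0.0581 to 0.167. For Slc16a3, 7 did so, with log2 1.59 to 2.07: db/+ replicates 1 and 2, db/db replicates 1 and 2, Con+Veh replicates 3 and 4 and STZ-HFD replicate 3, with adjusted p from 0.0520 to 0.160.

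Genes that work beside the carriers were read from 6 lists. Of the first and last steps of the pathway (hexokinases, lactate dehydrogenases and the mitochondrial pyruvate carrier), 6 of 8 genes were tested. In each model 1 of the 6 was called higher, where 1.3% of all genes were in STZ-HFD and 1.23% in db/db. In STZ-HFD this was Hk2, the hexokinase that is typical of muscle and fat and traps glucose as glucose 6-phosphate, at 41.4 ± 15.0 CPM against 19.6 ± 5.71 in Con+Veh (SD, n = 4 each). Its log2 fold change was 1.29 (SE 0.24, adjusted p = 0.00969), 0.83 with the muscle markers as a covariate (adjusted p = 0.193) and 1.41 without STZ-HFD replicate 1 (adjusted p = 0.00725), and its difference of the responses was 1.54 (adjusted p = 0.0386). With the muscle markers as a covariate that difference was 0.60 (adjusted p = 0.591), and it was called neither by edgeR's quasi-likelihood test (1.34, adjusted p = 0.243) nor by DESeq2 (1.33, adjusted p = 0.0939). Like Slc16a3, Hk2 is named in the study's own account of these samples, so its listing is not independent of them. The STZ-HFD call of Hk2 ended with edgeR (1.08, adjusted p = 0.141) and was kept by DESeq2 (1.10, adjusted p = 0.0155). The Hk2 call in STZ-HFD ended without Con+Veh replicate 3 (1.21, adjusted p = 0.199), Con+Veh replicate 4 (1.20, 0.0940) or STZ-HFD replicate 3 (0.99, 0.126), and that of the difference without any of 9 libraries. In db/db the gene that was called was Mpc2, a subunit of the mitochondrial pyruvate carrier, at 26.1 ± 5.19 CPM against 11.8 ± 2.26 in db/+ (SD, n = 3 each), with a log2 fold change of 1.14 (SE 0.27, adjusted p = 0.0390) that was 0.87 with the base composition trend taken off (adjusted p = 0.0977). In STZ-HFD Mpc2 stood at 40.8 ± 12.0 CPM against 26.1 in Con+Veh, with an adjusted p of 0.0321 but a log2 fold change of 0.97, under the fold minimum. The Mpc2 call in db/db ended with edgeR's quasi-likelihood test and DESeq2 (adjusted p = 0.0567) and on leaving out any 1 of the 6 db libraries, with log2 0.99 to 1.31 and adjusted p of 0.0522 to 0.137.

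In the other 5 lists 0 of 30 genes tested were called in either model or in the difference by limma, nor by edgeR or DESeq2. At an unadjusted p under 0.05 by limma stood 7 of the 30 in db/db, 4 in STZ-HFD and 5 in the difference, beside 21.1%, 17.9% and 17.3% of all genes. Of the other GLUT family 3 of 6 genes were tested, and Slc2a13, a proton-coupled inositol carrier, had the smallest p, with log2 0.76 in db/db (adjusted p = 0.156) and −0.50 in STZ-HFD (adjusted p = 0.563). Of the other MCT family 9 of 11 were tested, led by Slc16a6 in db/db (−1.01, adjusted p = 0.0613). Of the sodium-coupled carriers and basigin relatives 4 of 10 were tested, led by Emb, the embigin that chaperones MCT2, in db/db (1.08, adjusted p = 0.115) and by Nptn in STZ-HFD (−0.14, adjusted p = 0.813). All 12 genes of GLUT4 storage and traffic were tested, led by the motor Myo1c in db/db (−0.62, adjusted p = 0.196) and by the Rab regulator Tbc1d4 in STZ-HFD (0.68, adjusted p = 0.0998). Of the arrestin-domain proteins that restrain glucose uptake, Txnip was at log2 0.50 in db/db (adjusted p = 0.275) and Arrdc4 at −0.42 in STZ-HFD (adjusted p = 0.378). The medians of the lists beside all genes (−0.04) were 0.47, 0.10, 0.32, 0.18, 0.25 and −0.01 in db/db and −0.50, 0.03, −0.17, 0.20, −0.14 and 0.88 in STZ-HFD, in the order other GLUT, other MCT, sodium-coupled and basigin relatives, GLUT4 traffic, arrestin-domain proteins and first and last steps.

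The table of estimated transcript counts gave a second readout of Slc2a1. The protein-coding transcript of Slc2a1 that comes first in the annotation took 99.8%, 99.6% and 75.1% of the estimated counts of the gene in db/+ and 57.6%, 38.6% and 44.1% in db/db, and in db/db nearly all of the rest was a transcript annotated as a target of nonsense-mediated decay. The db groups were separate in this share. In Con+Veh it was 100%, 47.6%, 99.9% and 100%, and in STZ-HFD 77.9%, 98.6%, 99.8% and 92.9%, so that 1 control library was in the db/db range. Shared exons divide reads between these transcripts by estimate, and the share differed widely between libraries of 1 group. For Slc2a3, Slc2a4, Slc2a8, Slc16a3 and Bsg, transcript shares were not analysed here.

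For each member, the gene with the most similar pattern was taken as the one with the highest Pearson r of log2 CPM over the 14 libraries after group means were taken off, as a description of the best of 16914 others. For Slc2a4 this was Aldoa, an aldolase of glycolysis (r = 0.970), for Slc16a3 Ilrun (0.917), for Slc2a1 the lysosomal mannosidase Man2b1 (0.949) and for Bsg the tetraspanin Cd9 (0.969). For Slc16a1 it was Mrpl43, a mitochondrial ribosomal protein (0.977), for Slc16a7 Ifnlr1 (0.909), for Slc2a8 Sra1 (0.974) and for Slc2a3 the malic enzyme Me3 (0.928). Slc2a10 was nearest Gm44645 (0.975) and Slc2a12 nearest S100g (0.864). Without removing group means r was −0.21 for Slc16a7 with Ifnlr1, 0.29 for Slc2a12 with S100g and 0.40 for Slc2a3 with Me3, so these likenesses are within groups alone. These libraries also differ in depth and tissue make-up, which all genes share.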

How the data were processed

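Tail disc RNA (5 discs per mouse) was amplified with SeqPlex and sequenced on a NovaSeq X Plus, and per the labels the authors used bcl2fastq, STAR, featureCounts and Salmon on GRCm38. The deposited gene table holds raw counts per gene as whole numbers (55774 lines, 287 of them repeats), and the deposited transcript table holds estimated counts by Salmon, used unrounded for Slc2a1 shares and rounded for transcript totals. Samples were grouped by GEO labels, and all 14 columns were mapped. Genes with CPM over 1 in at least 3 libraries were fitted with limma 3.58.1 (voom with quality weights, 1 mean per group, TMM factors from edgeR 4.0.16, R 4.3.3), with Benjamini-Hochberg adjustment over all genes tested. edgeR's quasi-likelihood test and DESeq2 1.42.0 were alternatives, as were other filters, factors, covariates and libraries left out in turn. Depth was 16076908 to 58943169 counts, so low members such as Slc2a10 rest on few counts. Quality weights ran from 0.275 to 3.05. The statistics were tested on simulated data. All members are named; of other genes, those called and the smallest p of each list in each model, of which 1 is not reported here. Members and lists were chosen with earlier results of these data known. Exon lengths are from GENCODE M21. Replicates are separate mice.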

Additional observations from a re-analysis of the deposited data

Results flagged for a closer look

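In 3 of the 20 groups of 4 libraries (10 genes in Con+Veh and in STZ-HFD) 1 library lay far from the other 3, where chance gives about 1 in 20. Slc2a1 was at 149 CPM in STZ-HFD replicate 4, with a gap to the next library of 0.901 of the range of its group. Slc2a3 was at 5.80 CPM in STZ-HFD replicate 1 (gap 0.845), the library with by far the most genes detected. Slc16a3 was at 41.7 CPM in STZ-HFD replicate 3 (gap 0.908), and without that library its log2 fold change was 0.84 (adjusted p = 0.404, limma).

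The responses of 2 genes differed between the models in a test of the difference itself. The STZ-HFD response minus the db/db response was 1.85 on the log2 scale for Slc2a4 and 2.00 for Slc16a3. Model, age, diet and cohort cannot be told apart in this difference.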

How the results depend on the processing

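Counts of calls depended strongly on the fit. Over all genes, limma called 281 in db/db, 441 in STZ-HFD and 299 in the difference, edgeR's quasi-likelihood test 0, 29 and 5, voom without quality weights 9, 19 and 3, and DESeq2 212, 277 and 251. Leaving out single libraries gave 21 to 392 in db/db, 17 to 642 in STZ-HFD and 4 to 423 in the difference, and the cause was not tested. With an adipocyte covariate 0, 2 and 69 were called, and with a muscle covariate 238, 236 and 86.

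Of the members, 1 was called in db/db. It was 0 with edgeR, voom without weights (with or without STZ-HFD replicate 1), the base composition trend taken off, or a muscle or adipocyte covariate, and 2 with the replicate block, alone or with that trend taken off. In STZ-HFD 2 were called, but 0 with edgeR, both fits without weights, no filter, the replicate block (alone or with the trend), the muscle or adipocyte covariate, or both libraries with a shared name ending left out, and 1 with DESeq2, filterByExpr, ribosomal RNA genes left out or an erythroid covariate. In the difference 2 became 0 with those same settings that gave 0 in STZ-HFD and with the trend alone, and 1 with DESeq2 or filterByExpr. With single libraries out, the counts were 0 to 1 in db/db, 0 to 2 in STZ-HFD and 0 to 2 in the difference.

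Of the 6 lists, 1 gene was called in each comparison. In db/db it was 0 with edgeR, DESeq2, both fits without weights, filterByExpr, the trend (alone or with the replicate block) or the adipocyte covariate, 3 with no filter and 5 with the replicate block. In STZ-HFD it was 0 with edgeR, both fits without weights, the replicate block (alone or with the trend) and the muscle or adipocyte covariate, and 2 with RLE factors. In the difference it was 0 with edgeR, DESeq2, both fits without weights, no filter, filterByExpr, the replicate block (alone or with the trend), ribosomal RNA genes left out and the muscle or adipocyte covariate. Single libraries out gave 0 to 1, 0 to 2 and 0 to 2.

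Members without a call changed sign as follows. In db/db, Slc2a3 was 0.13 with the replicate block, 0.015 with the block and the trend and 0.18 with the adipocyte covariate. Slc2a8 was 0.37 with the trend taken off, 0.49 with the block as well and 0.077 with the adipocyte covariate, and Slc2a10 0.11 and 0.065 with the first 2 of these. Slc16a1 was −0.12 with the adipocyte covariate. In STZ-HFD, Slc2a3 was 0.26 with edgeR, 0.28 with DESeq2, 0.22 without weights, 0.10 with the adipocyte covariate, 0.028 without the libraries of shared name ending and −0.26 to 0.045 with single libraries out. Slc2a8 was −0.13 without those libraries and −0.19 to 0.30 with single libraries out. Slc2a10 was 0.89 without weights, 0.84 also without STZ-HFD replicate 1, and −0.60 to 0.49 with single libraries out. Slc16a7 was −0.055 with the adipocyte covariate, −0.068 without the libraries of shared name ending and −0.053 to 0.52 with single libraries out, and Bsg −0.34 with the muscle and −0.084 with the adipocyte covariate.

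With single libraries out, the difference in the log2 ratio of Slc2a4 to Slc2a1 was −0.065 to 0.64 in db/db and stayed positive, at up to 2.24, in STZ-HFD, and that of Slc16a3 to Slc16a1 −1.50 to −1.07 in db/db and −0.22 to 0.50 in STZ-HFD. The order of levels per length held in all 14 such fits. Same-numbered mice did not deviate together (r −0.28 to 0.19), and mice of different number had r of −0.28 to 0.45. With groups of 3 or 4 mice this check cannot exclude pairing. Whether the numbers pair samples was not tested in another way, so no conclusion is drawn from the block result. Transcript totals were not used here for Slc2a3, Slc2a4, Slc2a8, Slc16a3 and Bsg. P-values of the main fit rest on the weighted spread between mice within groups, pooled over all groups of 3 or 4 mice. Low counts limit Slc2a10 and Slc2a12 most.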
